A study of Mus musculus with 117 samples.

Results

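The subject is the set of genome regions whose chromatin state differs among mouse strains only between states 13 and 14 of a 14-state segmentation. A region is a run of 200-bp bins on chromosomes 1 to 19. In each of its bins all 9 strains have state 13 or state 14, each state occurs in at least 3 strains, and the strains keep the same states along the run, which is at least 1 kb long. There are 42774 such regions among 409502 runs of any length that meet the other conditions. Together they cover 54.7 Mb, which is 2.22% of the 12313718 autosomal bins. The regions were selected on the states of the 9 strains, so the states inside them, their strain patterns and each strain's share in state 13 are given as a description with no test.

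The states come from chromatin immunoprecipitation sequencing of liver hepatocytes of 9 inbred strains. Of these, 3 are wild-derived (CAST/EiJ, PWK/PhJ and WSB/EiJ) and 6 are classical laboratory strains (A/J, DBA/2J, C57BL/6J, NOD/ShiLtJ, 129S1/SvImJ and NZO/HlLtJ). All animals were females aged 12 weeks, and no treatment or transgene is named. Each strain has 13 libraries, for 4 histone marks in each of 3 mice and 1 input, and all 13 name the same segmentation in their labels. A strain therefore gives 1 value, the spread below is between strains, and the depth is unknown.

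A chromatin segmentation cuts the genome into bins and gives each bin the number of a recurring combination of marks. Of the marks used here, H3K4me3 is known from active promoters, H3K4me1 from enhancers, H3K27ac from active enhancers and promoters, and H3K27me3 from genes silenced by Polycomb proteins. In a differentiated cell such as the hepatocyte, genes of other lineages are typically kept silent, either under H3K27me3 or in chromatin with little of any of these marks. The sources used here do not give the mark content of the 14 states, so a state number is only a name. Landmarks can be given instead. Bins within 1 kb of the starts of hepatocyte genes were in states 1 to 3 for 98.5% ± 2.72 (SD over 9 strains) and in state 13 for 0%. Bins near the starts of developmental transcription factor genes were in state 13 for 46.6% ± 3.69 and in states 1 to 3 for 3.62% ± 0.665. State 13 covered 9.40% of the autosomal bins in C57BL/6J and 13.1% in WSB/EiJ, the lowest and highest strains, and 74.7% to 89.0% of chromosome X.

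The cell type label was checked at the starts of marker genes. Alb, Apoa1 and Apob, which encode albumin and apolipoproteins, had 100% of the bins within 1 kb of the start in states 1 to 3 in each strain. Hnf4a, a transcription factor gene of hepatocytes, had 45.5% in CAST/EiJ and 81.8% to 100% in the other strains. Genes with no strand in the tables were measured at both ends: Ttr had 50% to 90.9% and Cps1 had 50% in each strain. Of 12 markers of endothelial, Kupffer, leukocyte, bile duct and stellate cells, 7 were at 0% in all strains: Kdr, Adgre1, Clec4f, Cd3e, Krt19, Lrat and Pdgfrb. The number of these markers above 0% was 4 in PWK/PhJ (Stab2, Cdh5, Ptprc and Pecam1), 0 in A/J and WSB/EiJ, and 1 or 2 in the others. Their percentages summed to 136 in PWK/PhJ, to 0 in A/J and WSB/EiJ, and to between 9.09 and 54.5 in the other strains.

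Sequence is shown for promoters that lay wholly inside a region. Only 0.892% of the regions' bins lie within 1 kb of a protein-coding gene start, and the base composition of the regions as a whole was not computed. Of 31396 autosomal promoters in the RefSeq table for GRCm38.p6 (250 bases before to 50 after a gene start), 398 lay wholly in a region. Those matched to a gene type belong to 189 protein-coding genes and 177 long non-coding RNA genes. The 5 in the longest regions are printed 5′ to 3′ in the direction of the gene, in lower case with each CG dinucleotide in capitals, since CG content is what sets silenced CpG-island promoters apart from CpG-poor ones.
Gm2128: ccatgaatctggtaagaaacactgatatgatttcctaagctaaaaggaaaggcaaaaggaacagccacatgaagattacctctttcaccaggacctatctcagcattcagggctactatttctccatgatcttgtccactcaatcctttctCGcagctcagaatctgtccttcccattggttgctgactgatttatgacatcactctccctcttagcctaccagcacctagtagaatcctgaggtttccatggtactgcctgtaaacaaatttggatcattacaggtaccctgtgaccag
Olfr410: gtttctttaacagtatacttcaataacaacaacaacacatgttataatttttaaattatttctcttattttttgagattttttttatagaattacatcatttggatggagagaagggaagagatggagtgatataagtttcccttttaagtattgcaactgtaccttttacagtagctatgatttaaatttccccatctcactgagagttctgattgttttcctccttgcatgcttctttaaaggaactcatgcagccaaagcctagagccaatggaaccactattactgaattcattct
Vmn1r52: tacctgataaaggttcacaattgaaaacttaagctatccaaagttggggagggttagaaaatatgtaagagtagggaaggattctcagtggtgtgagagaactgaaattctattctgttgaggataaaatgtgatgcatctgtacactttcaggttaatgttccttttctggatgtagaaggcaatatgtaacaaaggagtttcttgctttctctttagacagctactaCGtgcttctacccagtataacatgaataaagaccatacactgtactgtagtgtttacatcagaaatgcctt
4930430F21Rik: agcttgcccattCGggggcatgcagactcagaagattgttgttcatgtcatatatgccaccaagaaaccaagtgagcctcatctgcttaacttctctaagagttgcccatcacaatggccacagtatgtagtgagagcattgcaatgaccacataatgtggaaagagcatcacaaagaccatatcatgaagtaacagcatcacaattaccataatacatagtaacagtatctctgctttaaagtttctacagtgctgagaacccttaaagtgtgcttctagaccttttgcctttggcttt
Gm8104: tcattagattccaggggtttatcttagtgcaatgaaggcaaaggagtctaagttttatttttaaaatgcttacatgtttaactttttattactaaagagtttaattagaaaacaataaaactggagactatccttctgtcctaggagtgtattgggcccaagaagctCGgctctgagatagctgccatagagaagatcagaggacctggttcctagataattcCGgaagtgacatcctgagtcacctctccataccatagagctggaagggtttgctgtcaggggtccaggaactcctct

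The Gm2128 promoter (chr7:41153437-41153736, + strand) lay in a region of 7000 bp with state 13 in CAST/EiJ, DBA/2J and PWK/PhJ. The promoter of Olfr410, an olfactory receptor gene (chr11:74335180-74335479, - strand), lay in a region of 5200 bp with state 13 in A/J, CAST/EiJ, NZO/HlLtJ, PWK/PhJ and WSB/EiJ. The promoter of Vmn1r52, a vomeronasal (pheromone) receptor gene (chr6:90178466-90178765, + strand), lay in a region of 4400 bp with state 13 in A/J, C57BL/6J, CAST/EiJ, NOD/ShiLtJ and WSB/EiJ. The long non-coding RNA gene 4930430F21Rik (chr15:31038876-31039175, + strand) had its promoter in a region of 3800 bp, in state 13 in A/J, C57BL/6J, DBA/2J, NZO/HlLtJ and WSB/EiJ. The Gm8104 promoter (chr14:43057552-43057851, + strand) lay in a region of the same length, in state 13 in CAST/EiJ, NZO/HlLtJ and PWK/PhJ. These 5 promoters hold 1, 0, 1, 1 and 2 CG dinucleotides in 300 bases, and their GC content runs from 32.3% to 44.0%. All 5 are CG-poor.

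The same held for most of the 398 promoters. They had a mean of 4.22 CG dinucleotides and a median of 3, with a GC content of 46.5%. Promoters wholly in state 14 in all 9 strains (6205) had a mean of 3.48 and a GC content of 45.5%. Promoters wholly in state 13 in all 9 strains (967) had a mean of 9.18 and a GC content of 52.2%, and all autosomal promoters had 12.6 and 54.0%. Of the switching promoters, 4.77% held 15 or more CG dinucleotides, against 20.4% of those always in state 13 and 1.34% of those always in state 14. In CG content the switching promoters thus lay nearer to the promoters always in state 14. Promoters are not replicates and no test was run.

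The regions are short. The median length was 1200 bp, 45.9% had the minimum of 1000 bp, 3102 reached 2 kb and 47 reached 5 kb. Just outside the length threshold lay 30310 runs of 800 bp, against 19652 regions of 1000 bp just inside. Just outside the strain threshold, 658852 autosomal bins were split 2 strains against 7, beside 491963 bins split 3 against 6 just inside. Of all autosomal bins with both states and no other, 33.0% met the strain rule, and 29.3% of those lay in runs long enough to be kept. State 13 was held by 3 strains in 13881 regions, by 4 in 10180, by 5 in 9154 and by 6 in 9559. The regions are pieces of longer stretches of state 13 that begin and end at different places in different strains. In a strain with state 13, the segment that covered a region had a median length of 5000 to 7400 bp, longest in WSB/EiJ. In a strain with state 14, the median was 6200 to 12800 bp, longest in PWK/PhJ.

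The longest region lies in Nckap5, a gene of a protein named for its binding to the adaptor NCK, at chr1:126635801-126653800 (18 kb). State 13 covered it in A/J, 129S1/SvImJ, DBA/2J, C57BL/6J, CAST/EiJ and WSB/EiJ, and state 14 in NOD/ShiLtJ, NZO/HlLtJ and PWK/PhJ. The segment of state 13 measured 29.4 to 40.4 kb in the 6 strains that had it, and the segment of state 14 measured 19.2 to 46.6 kb in the other 3. In each of the 6 strains the state 13 segment ended at 126663400 or 126663600, so these ends agree to within 1 bin. Short segments of states 1 to 12 lay between -23.4 and -21.8 kb and between 26.8 and 29.6 kb from the centre in all 9 strains. Which of these states they held differed between strains. Between 26.8 and 29.6 kb, state 2 was present in NOD/ShiLtJ, NZO/HlLtJ and PWK/PhJ, the strains with state 14 in the region. The 6 strains with state 13 had only state 6 there, or states 6 and 10 in DBA/2J. A further region among the 10 longest, of 6800 bp at chr1:126609401-126616200, lies in the same gene and has the same 6 strains in state 13.

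**Figure D1:**
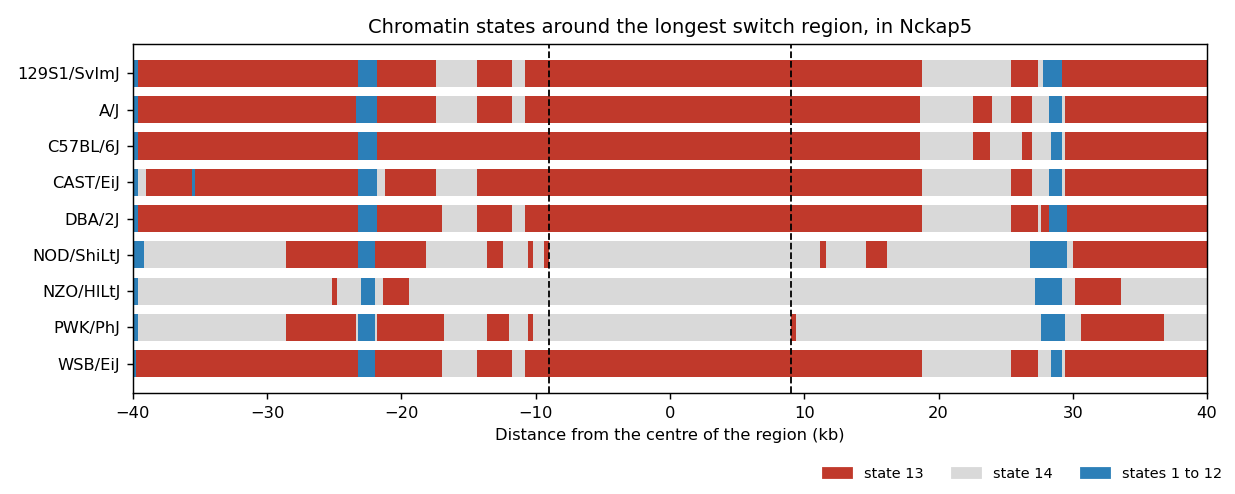
States of the 9 strains (rows) within 40 kb of the centre of the longest region, by distance in kb, with dashed lines at the region's edges. In 6 strains state 13 runs across the whole region and past both edges, while NOD/ShiLtJ, NZO/HlLtJ and PWK/PhJ have state 14 there, and short segments of states 1 to 12 on both sides occur in every strain.

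The other 8 of the 10 longest regions were spread over 7 chromosomes. A region of 14.6 kb at chr17:4673801-4688400 was in state 13 in A/J, CAST/EiJ and NOD/ShiLtJ and lay 306 kb from the nearest protein-coding gene, Arid1b, a subunit of a chromatin remodelling complex. Regions of 9600 and 9200 bp lay outside protein-coding genes, nearest to Gm10044 and to Bpifa2, a salivary protein gene. A region of 9000 bp overlapped Krt23, a keratin gene, with 129S1/SvImJ, C57BL/6J, DBA/2J, NOD/ShiLtJ and WSB/EiJ in state 13. A region of 8600 bp overlapped Trps1, a transcription factor of the GATA type, with CAST/EiJ, NOD/ShiLtJ and PWK/PhJ in state 13. A region of 7800 bp lay 12.8 kb from Cyp19a1, the aromatase gene, with 129S1/SvImJ, A/J, CAST/EiJ, NOD/ShiLtJ, PWK/PhJ and WSB/EiJ in state 13. The remaining regions, of 7400 and 7000 bp, overlapped Gm21154 and Gm2128. Each of the 9 strains had state 13 in some of these regions and state 14 in others.

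Strains differed widely in how often they were the ones with state 13. A/J had state 13 in 63.9% of the regions, WSB/EiJ in 60.8%, 129S1/SvImJ in 57.3% and NOD/ShiLtJ in 53.0%. The share was 45.6% in NZO/HlLtJ, 41.2% in CAST/EiJ, 39.4% in C57BL/6J, 39.3% in DBA/2J and 33.3% in PWK/PhJ. The mean was 48.2% ± 10.9 (SD, n = 9), and the neighbours C57BL/6J and DBA/2J differ by far less than that spread. The order is not that of state 13 over all autosomal bins: PWK/PhJ, lowest here, had 11.4% of its autosomal bins in state 13, above the mean of 11.1% ± 1.36.

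All 420 strain patterns that the rule allows occurred, with a median of 66 regions per pattern and at least 6. The 10 most frequent patterns held 13.9% of the regions. The most frequent, with 762 regions, had CAST/EiJ, DBA/2J and PWK/PhJ in state 14 and the other 6 strains in state 13. The next, with 732 regions, had CAST/EiJ, NOD/ShiLtJ and PWK/PhJ in state 14 and the other 6 in state 13. The following pair had state 13 in A/J and WSB/EiJ together with NOD/ShiLtJ (699 regions) or with 129S1/SvImJ (688 regions). The fifth, with 569 regions, had only CAST/EiJ, NOD/ShiLtJ and PWK/PhJ in state 13, the mirror image of the pattern with 732 regions. The remaining 5 of the 10 held 561, 515, 509, 449 and 449 regions, and in each of them A/J was in state 13. The split of the 3 wild-derived strains CAST/EiJ, PWK/PhJ and WSB/EiJ from the 6 classical strains was not among these 10: it was found in 286 regions with the wild-derived strains in state 13 and in 261 regions the other way round.

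Pairs of strains had the same state in 31.8% to 60.4% of the regions, with a median of 47.2% over the 36 pairs. CAST/EiJ and PWK/PhJ were most alike (60.4%), followed by A/J and WSB/EiJ (57.6%) and by DBA/2J and NZO/HlLtJ (54.1%). PWK/PhJ and WSB/EiJ were least alike (31.8%), followed by A/J and PWK/PhJ (33.5%). CAST/EiJ and WSB/EiJ had the same state in 40.4%. WSB/EiJ thus had the same state most often with A/J and least often with the other 2 wild-derived strains. A/J and WSB/EiJ also had the highest shares of regions in state 13 (63.9% and 60.8%), which raises their agreement. Over 833 windows of 1 Mb with at least 20 regions, the WSB/EiJ share had a Pearson correlation of 0.247 with that of A/J. The correlation was 0.299 with C57BL/6J and 0.276 with NZO/HlLtJ.

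Neighbouring regions were often in the same state. The median gap between regions on a chromosome was 10.2 kb, and 49.7% of gaps were 10 kb or less. Across a gap of 2 kb or less, the mean number of strains with the same state in both regions was 6.95 of 9, and 5.12% of such neighbours had the same pattern. Across more than 100 kb the mean was 5.46 of 9 and the same pattern occurred in 2.34%.

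State 13 stayed more frequent around a region in the strains that had it there. At 0.2 kb from the edge, 85.1% ± 1.96 of bins were in state 13 where the strain had state 13 in the region and 17.1% ± 3.71 where it had state 14 (mean and SD over 9 strains). The values were 43.3% ± 4.01 and 26.2% ± 3.48 at 5 kb, 28.2% ± 3.37 and 20.3% ± 2.33 at 100 kb, and 14.3% ± 2.32 and 12.3% ± 1.36 at 1000 kb. The range over which the 2 curves stayed apart was not the same in all strains. With each value taken against the mean of the 9 strains at the same place, the difference at 100 kb was 16.9 percentage points in PWK/PhJ and 11.6 in WSB/EiJ, against 2.91 to 6.07 in the other 7. At 1000 kb it was 5.97 in PWK/PhJ and 4.21 in WSB/EiJ, against 0.571 to 1.29. Adjacent bins enter both the rule and this profile, so it has no test.

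**Figure D2:**
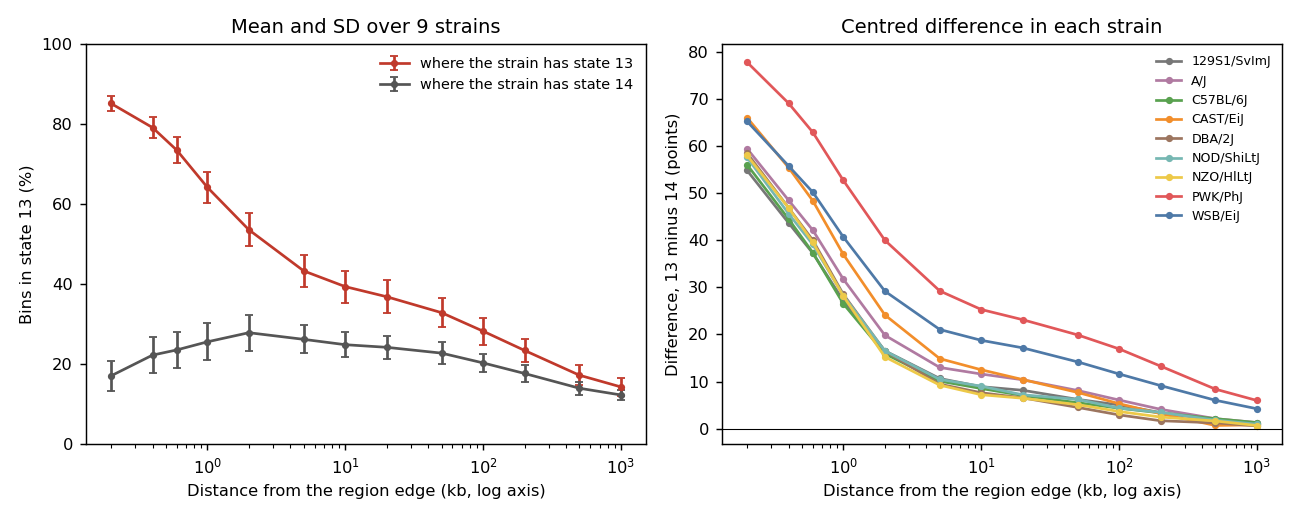
Left, percentage of bins in state 13 against distance from the region edge (kb, log axis), as mean and SD over 9 strains, where the strain has state 13 or state 14 in the region; right, the difference between these in each strain after subtracting the mean of the 9 strains. The curves start at 85.1% and 17.1% and approach each other with distance, and PWK/PhJ and WSB/EiJ keep the largest differences from 5 kb to 1000 kb.

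PWK/PhJ and WSB/EiJ also differed most between kinds of chromosome window. The 2244 windows of 1 Mb that held a region were ordered by their mean share of bins in states 1 to 12 and divided into 5 groups of 448 or 449 windows. Genes were counted by window at their lower coordinate, here called the left end, whatever their strand. The group with the lowest share had a mean of 0.847% and 2.97 left ends of protein-coding genes per window. In it, PWK/PhJ had state 13 in 64.1% of the regions, the highest of the 9 strains. Its share then fell through 35.8%, 25.5% and 19.5% to 12.2% in the group with the highest share, the lowest of the 9. WSB/EiJ ran the other way, from 39.9% through 56.7%, 65.2% and 73.1% to 77.5%. C57BL/6J went from 29.4% to 55.1%, A/J from 46.9% to 69.1% and 129S1/SvImJ from 54.1% to 63.3%. CAST/EiJ went from 49.7% down to 31.7%. DBA/2J, NOD/ShiLtJ and NZO/HlLtJ moved by less than 9 percentage points between the outer groups.

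**Figure D3:**
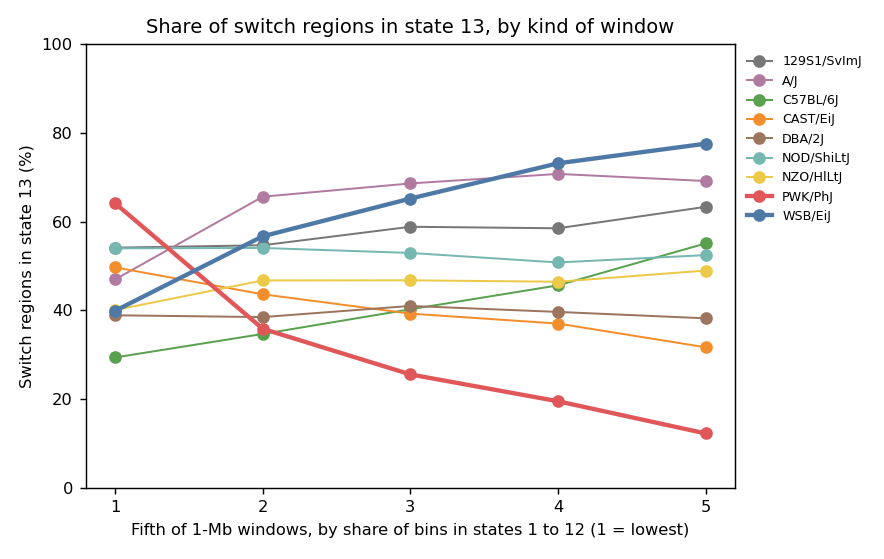
Percentage of switch regions in state 13 in each strain (lines) for 5 groups of 1-Mb windows ordered by the share of bins in states 1 to 12. PWK/PhJ falls from 64.1% to 12.2% while WSB/EiJ rises from 39.9% to 77.5%.

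The opposite slopes of these strains were also seen with windows classed by left ends of genes. In the 226 windows with no left end of a protein-coding gene, PWK/PhJ had state 13 in 62.2% of regions and WSB/EiJ in 43.4%. In the 765 windows with 6 to 15 left ends the shares were 23.7% and 68.2%. In the 376 windows with 16 or more they were 28.2% and 64.8%. Of 833 windows with at least 20 regions, 93 had WSB/EiJ in state 13 at 90% or more and PWK/PhJ at 10% or less, and 7 had the reverse. The 93 windows had 15.4% of bins in states 1 to 12 and 11.3 left ends of genes on average, and the 7 had 1.85% and 7. Over the 833 windows the shares of the 2 strains had a Pearson correlation of -0.579, the lowest of the 36 pairs. Windows of 1 genome share their libraries, and the shares of the 9 strains are tied by the rule, so this is a description. The markers of other cell types given above also separate these strains, with 4 of 12 above 0% in PWK/PhJ and 0 in WSB/EiJ. Their part in the slopes was not tested.

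On chromosomes 18 and 19 several strains fell outside their range on the other autosomes. Chromosome 19 had the highest share of its bins in regions, 4.43%, and chromosome 10 the lowest, 1.23%. On chromosome 19, 129S1/SvImJ had state 13 in 81.1% of the 1984 regions, against 52.7% to 63.1% on each of the 17 chromosomes other than 18 and 19. C57BL/6J had 69.3% there, against 29.7% to 43.9%. NZO/HlLtJ had 23.2%, against 38.6% to 52.3%, and WSB/EiJ had 40.4%, against 49.4% to 79.5%. On chromosome 18, A/J had state 13 in 79.0% of the 1873 regions, against 50.4% to 72.1% on the 17 others. 129S1/SvImJ had 36.0% on chromosome 18, the lowest of its 19 values, and 81.1% on chromosome 19, the highest. States 1 to 12 covered 18.2% to 20.1% of chromosome 19 in 8 strains and 16.7% in PWK/PhJ.

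**Figure D4:**
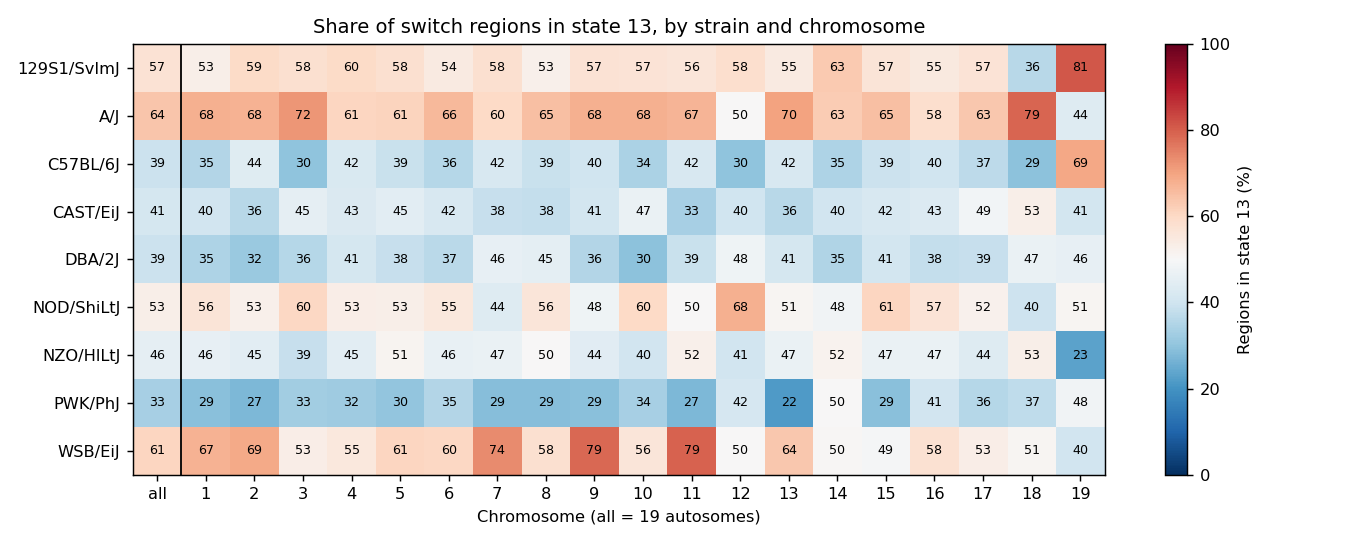
Percentage of switch regions in state 13 for each strain (rows) on all autosomes and on each chromosome (columns), with the value printed in each cell and colour from 0% to 100%. On chromosome 19 the strains 129S1/SvImJ (81.1%) and C57BL/6J (69.3%) are high and NZO/HlLtJ (23.2%) is low, and on chromosome 18 A/J (79.0%) is high.

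Of the 10 windows with the most regions, 5 lie on chromosome 19, 4 on chromosome 14 and 1 on chromosome 11. The window with the most regions, chr19:13000001-14000000, held 190 regions and the left ends of 33 protein-coding genes, Olfr1477 among them. There, state 13 was found in 98.4% of the regions in 129S1/SvImJ, 97.4% in PWK/PhJ and 93.2% in C57BL/6J, but in 3.16% in A/J, 1.05% in NZO/HlLtJ and 0% in WSB/EiJ. CAST/EiJ (55.3%), DBA/2J (44.2%) and NOD/ShiLtJ (16.8%) lay between. The next window, chr19:19000001-20000000, had 138 regions and no left end of a protein-coding gene. State 13 was found there in 98.6% in 129S1/SvImJ, 93.5% in PWK/PhJ, 84.8% in C57BL/6J and 5.80% in WSB/EiJ. Windows at 4 to 7 Mb of chromosome 14 held 110 to 129 regions each. In those, 129S1/SvImJ was in state 13 in 97.3% to 99.2% and PWK/PhJ in 68.2% to 89.9%, while C57BL/6J, high in the chromosome 19 windows, was at 15.5% to 24%, and NZO/HlLtJ, low there, was at 41.9% to 80.0%.

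Some windows held 1 strain pattern more often than most. In windows with at least 20 regions, the commonest pattern held a median of 9.38% of the window's regions, in 10 of the 833 windows it held 30% or more, and in 1 it held 50% or more. These windows were picked out after their values were seen. At chr7:41000001-42000000, 22 of 31 regions (71.0%) had state 13 in CAST/EiJ, DBA/2J and PWK/PhJ alone. That window holds the Gm2128 promoter printed above, the zinc finger gene Zfp788 and the vomeronasal receptor genes Vmn2r57 and Vmn2r58. The window chr8:28000001-29000000 holds the left end of only 1 protein-coding gene, Unc5d, a netrin receptor gene. In that window, 19 of 42 regions had state 13 in DBA/2J, NZO/HlLtJ and PWK/PhJ alone. At chr4:143000001-144000000, among the Pramel genes, a family with many close copies, 13 of 34 regions had the CAST/EiJ, DBA/2J and PWK/PhJ pattern. In the Nckap5 window, chr1:126000001-127000000, 15 of 40 regions had the pattern of the longest region. At chr2:179000001-180000000, which holds Cdh4, 12 of 38 regions had state 13 in C57BL/6J, DBA/2J, NZO/HlLtJ and WSB/EiJ alone.

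Most of the regions' length lay outside protein-coding genes, the only genes counted here. Bodies of protein-coding genes held 33.4% of the bins of the regions, against 40.1% of all autosomal bins. Those of 200 kb or longer held 18.5% against 16.2%. Bins within 1 kb of a protein-coding gene start made up 0.892% of the regions and 1.39% of all bins. They made up 2.76% of the bins in state 13 in all strains and 0.422% of those in state 14 in all strains. Of the regions' bins, 29.4% were within 5 kb of a bin in state 13 in all 9 strains, against 9.81% of all autosomal bins. The median distance was 14.6 kb against 129 kb. By the rule each region has state 13 in at least 3 strains, so this nearness draws on the states that chose the regions. Bins of states 1 to 12 in any strain were farther from the regions (median 9.0 kb) than from autosomal bins in general (4.4 kb). The autosomal bins in general include the bins of states 1 to 12 themselves, which the regions cannot hold. The median was 6 kb for bins in state 14 in all 9 strains and 5.4 kb for bins in state 13 in all 9 strains.

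Of 20665 autosomal protein-coding genes, 3078 had a region in the body, which is 14.9%. The share rose with gene length, from 6.78% of genes under 10 kb, through 11.9% (10 to 50 kb) and 25.9% (50 to 200 kb), to 61.0% of the genes of 200 kb or longer. Each gene list below is therefore given with the share that its own gene lengths give when each member is set to the share of its length class. The lists are descriptions, and members of a cluster that overlap share regions.

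Genes that mark hepatocytes had no region. None of 24 hepatocyte-expressed genes and none of 18 ubiquitously expressed genes had a region, where their lengths give 11.3% and 9.06%. The rule admits only bins in state 13 or 14 in all 9 strains, so it leaves out bins of states 1 to 12. Bins near the starts of hepatocyte genes and of ubiquitously expressed genes were in states 1 to 3 for 98.5% and 90.1%. The absence of regions from these genes is therefore at least partly set by the rule. None of 39 Hox cluster genes, which pattern the body axis, had a region, where length gives 7.57%. Zinc finger (Zfp) genes had a region in 19 of 388 (4.90%, against 13.6% from length). Of these, Zfp423 carried 22 regions over 25 kb, with state 13 in 82.4% of that length in 129S1/SvImJ and WSB/EiJ and in 0% in CAST/EiJ and PWK/PhJ. Zfp536 carried 18 regions, with 88.9% in WSB/EiJ and 6.48% in PWK/PhJ. Developmental transcription factor genes had a region in 12 of 94 (12.8%, against 10.8% from length). Pax7, a muscle stem cell factor, had 13.6 kb of regions in state 13 along their whole length in CAST/EiJ, DBA/2J and WSB/EiJ and nowhere in NOD/ShiLtJ. Eya1 had 9.2 kb, with 89.1% in state 13 in NZO/HlLtJ and 0% in PWK/PhJ.

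Receptor, channel, cadherin and collagen genes had a region more often than their length gives. Glutamate and GABA receptor genes had a region in 34 of 43 (79.1%, against 38.2% from length). Potassium, sodium and calcium channel genes had one in 73 of 130 (56.2%, against 25.2%), cadherin genes in 13 of 23 (56.5%, against 35.1%) and collagen genes in 27 of 42 (64.3%, against 25.8%). The share of the body in regions was 3.29%, 4.40%, 2.53% and 3.12% in these 4 lists, beside 2.61% over all genes of 200 kb or longer. Gria1, a subunit of AMPA-type glutamate receptors, had 54.8 kb of regions, in state 13 over 94.5% of that length in WSB/EiJ, 85.0% in A/J, 83.6% in DBA/2J and 0% in PWK/PhJ. Among the channel genes, Cacna1e had 53.0 kb of regions, in state 13 over 94.0% of that length in WSB/EiJ and 7.92% in PWK/PhJ. Kcnip4 had 73.6 kb, with 79.3% in PWK/PhJ and 10.9% in C57BL/6J. Over all 605 regions in channel genes, state 13 was found in 73.1% in WSB/EiJ and 22.6% in PWK/PhJ, beside 65.3% and 30.2% over the 14652 regions in any protein-coding gene.

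Protocadherin and chemosensory receptor genes also had a region more often than their length gives. Clustered protocadherin genes, whose products give neurons surface identities, had a region in 43 of 55 (78.2%, against 22.0% from length), and 8.82% of their body lay in regions, against 1.90% over all genes. The genes overlap, and the 43 share 49 distinct regions. State 13 was found in 79.6% of these in CAST/EiJ, DBA/2J and PWK/PhJ, in 61.2% in NZO/HlLtJ, in 42.9% in A/J, and in 12.2% to 28.6% in C57BL/6J, NOD/ShiLtJ, 129S1/SvImJ and WSB/EiJ. In Pcdhb13, 80.0% of the body lay in regions, which were wholly in state 13 in CAST/EiJ, DBA/2J, NZO/HlLtJ and PWK/PhJ. Olfactory receptor genes had a region in 122 of 1104 (11.1%, against 6.91% from length), and 5.80% of their body lay in regions. Vomeronasal receptor genes had one in 56 of 352 (15.9%, against 8.66%), with 4.21% of their body in regions. In the 133 regions of the vomeronasal genes, state 13 was found in 70.7% in NOD/ShiLtJ, 64.7% in 129S1/SvImJ, 63.2% in CAST/EiJ and 62.4% in PWK/PhJ, and in 18.8% in NZO/HlLtJ. Vmn2r112, in which 59.3% of the body lay in regions, was wholly in state 13 there in CAST/EiJ, DBA/2J and PWK/PhJ and nowhere in C57BL/6J and WSB/EiJ. These receptor genes have close copies, and how reads of near-identical copies were placed is not given in the sources used here.

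Ligand genes of the Wnt and Fgf families lay above the share that length gives, Bmp and Gdf ligands and solute carriers lay near it, and cytochrome P450 genes lay below. A region was found in 6 of 19 Wnt ligand genes (31.6%, against 11.8% from length), 8 of 20 Fgf ligand genes (40%, against 16.8%) and 3 of 20 Bmp and Gdf ligand genes (15%, against 12.0%). Wnt3a, with 1 region of 2.2 kb, had state 13 in 129S1/SvImJ, A/J, DBA/2J, NZO/HlLtJ and WSB/EiJ. Fgf12 had 35 regions, with state 13 over 75.5% of their length in 129S1/SvImJ and 26.9% in PWK/PhJ. Cytochrome P450 genes of families 1 to 4, many of them enzymes of drug and lipid metabolism in the liver, had a region in 6 of 79 (7.59%, against 12.3%), and solute carrier genes in 64 of 362 (17.7%, against 16.4%). Cyp3a16 had 6.4 kb of regions, wholly in state 13 in A/J, C57BL/6J, DBA/2J and NOD/ShiLtJ and nowhere in CAST/EiJ, PWK/PhJ and WSB/EiJ.

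Marker genes of other liver cells were also counted, and the endothelial list lay at the share that length gives. Kupffer cell and leukocyte marker genes had a region in 5 of 13 (38.5%, against 13.6% from length) with 9.46% of their body in regions, bile duct and stellate markers in 7 of 14 (50%, against 13.9%), and endothelial markers in 2 of 12 (16.7%, against 16.2%). Adgre1, which encodes the macrophage marker F4/80, held 12 regions, in state 13 over 93.2% of their length in 129S1/SvImJ and WSB/EiJ, 86.3% in NOD/ShiLtJ and 8.22% in PWK/PhJ. Ptprc, which encodes the leukocyte antigen CD45, held 9 regions, with 100% in A/J and 0% in PWK/PhJ. Marco, a macrophage scavenger receptor gene, had 100% in WSB/EiJ and 0% in PWK/PhJ. Over the 32 regions of the leukocyte list, state 13 was found in 90.6% in WSB/EiJ and 9.38% in PWK/PhJ, a wider gap than over all regions in genes. PWK/PhJ is also the strain with 27.3% of bins near the Ptprc start in states 1 to 3, against 0% in the other strains, and Adgre1 was at 0% in all. The part of other cells in these values was not tested.

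Long genes expressed in neurons carried the most region length. Rbfox1, a splicing factor gene of neurons and muscle, had 116 regions over 146 kb of its 1528 kb. In that length, state 13 was found in 89.4% in WSB/EiJ, 68.4% in 129S1/SvImJ, 61.0% in CAST/EiJ, 27.7% in NOD/ShiLtJ and 0% in PWK/PhJ. Lsamp, a neuronal adhesion gene on the same chromosome, also had 116 regions over 146 kb, with 85.7% in PWK/PhJ, 69.2% in WSB/EiJ and 17.7% in A/J. Tenm2 (110 kb) and Asic2 (98.0 kb) followed. In Asic2, an ion channel gene, state 13 was found in 90.2% in WSB/EiJ and 2.04% in PWK/PhJ. Gm37013, Gm38666 and Gm38667 span the protocadherin cluster and share its regions. Dlg2 (88.4 kb), Opcml (83.2 kb) and Nrxn3 (78.4 kb), all of the synapse or the neuronal surface, complete the 10 genes with the most region length. Nrxn3 had 78.8% in PWK/PhJ and 21.7% in WSB/EiJ. The same strain was therefore at the high end in Lsamp and Nrxn3 and at the low end in Rbfox1 and Asic2.

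In small genes a region could cover nearly the whole body. Of the genes of 2 kb or more, Gm6370 had 93.3% of its body in a single region, in state 13 in 129S1/SvImJ, A/J, CAST/EiJ, DBA/2J and NZO/HlLtJ. Gm3404, Gm6408 and Gm3415, its neighbours on chromosome 5, had 80.0% to 86.7% of the body in regions. C57BL/6J and PWK/PhJ had state 14 in the regions of all 4 genes, and DBA/2J and NZO/HlLtJ had state 13 in them. Defb26, a gene of the defensin family, had 90.5%, wholly in state 13 in 129S1/SvImJ, C57BL/6J, NZO/HlLtJ and WSB/EiJ. The others among the 10 genes with the highest shares were Pcdhb13, Eif3j2, Svs3a, a seminal vesicle protein gene, Cst9, a cystatin gene, and Olfr1477, at 73.3% to 80.0%.

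Measures that did not choose the regions were then compared. The first was the share of bins in states 1 to 12 at 2 kb to 10 kb from a region, with the bins of all regions left out. It was 2.19% ± 0.458 where the strain had state 13 in the region and 2.63% ± 0.568 where it had state 14 (SD over 9 strains). With each value taken against the mean of the 9 strains at that region, the difference was -0.479 ± 0.240 percentage points and was lower in all 9 (p = 0.0039 by an exact sign-flip permutation test, two-sided, the smallest that 9 strains allow). The strain differences ran from -0.310 in NOD/ShiLtJ to -1.09 in CAST/EiJ. These 9 differences are not independent, because strains are compared within the same regions. When the strains' flank values were exchanged among the strains' switch patterns in every order, the observed difference was the most extreme of 362880 (exact permutation, p = 2.76e-06, the smallest possible). Flanks and regions come from the same segmentation. The segments over the regions had strain medians of 5000 to 7400 bp (state 13) and 6200 to 12800 bp (state 14), so they can reach into the flanks. The exchange breaks that continuity, so its p-value cannot separate a difference in states 1 to 12 from it. Without subtraction of the regional mean, the difference was -0.437 ± 0.968 points, lower in 7 of 9 strains, and did not pass the sign-flip test (exact p = 0.246). In the regions of 2 kb or longer the centred difference was -1.08 points.

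The shares of all states sum to 100%, and state 13 itself takes up more of the flank where the strain has state 13, 41.2% against 25.9%. Among the flank bins not in state 13, states 1 to 12 took 5.08% ± 1.25 where the strain had state 13 and 3.89% ± 0.619 where it had state 14. This difference was 0.749 ± 0.631 points, higher in 9 of 9 strains, so the direction for states 1 to 12 together turned with the denominator. The bins not in state 13 were mostly in state 14, the other state of the rule. State 14 filled 56.6% of the flank where the strain had state 13 and 71.5% where it had state 14. Both denominators therefore carry a state that chose the regions, and a direction found with either is tied to that state. Of the single states, some kept their call with both denominators and others lost it, and none turned to a call in the other direction.

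As shares of all flank bins, 6 of the 12 states (50%) were lower where the strain had state 13 and 5 (41.7%) were higher, at a Benjamini-Hochberg adjusted p under 0.05 over the 12 states. States 1, 2 and 4 were lower with both denominators and in 9 of 9 strains each. State 1 covered 0.151% ± 0.0474 where the strain had state 13 and 0.254% ± 0.0689 where it had state 14, a centred difference of -0.100 ± 0.0360 points (exact sign-flip, adjusted p = 0.00586). State 2 differed by -0.114 ± 0.0457 points and state 4 by -0.132 ± 0.0790 points, with the same exact adjusted p. In state 4 the strain differences ran from -0.0676 in A/J to -0.293 in CAST/EiJ. States 7 and 10 were higher with both denominators and in 9 of 9 strains. State 10 covered 0.377% ± 0.0966 against 0.250% ± 0.0556, a difference of 0.0909 ± 0.0514 points, and as a share of bins not in state 13 it covered 1.73% ± 0.624 against 0.735% ± 0.195. State 7, at 0.0738% against 0.0453%, differed by 0.0223 ± 0.0125 points.

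The calls of the remaining states depended on the setting. States 3, 6 and 8 were lower as shares of all flank bins (exact adjusted p = 0.00586 each). As shares of bins not in state 13 their exact adjusted p rose to 0.474, 0.887 and 0.638, and the mean difference of state 6 was then 0.0040 points. States 5, 11 and 12 were higher at exact adjusted p of 0.0365, 0.0375 and 0.0384, in 8, 7 and 7 of 9 strains. As shares of bins not in state 13 they were higher by 0.0326, 0.0785 and 0.0932 points, in 9, 9 and 8 of 9 strains (exact adjusted p = 0.00670, 0.00670 and 0.0117). For state 5 the exchange of strains gave an exact adjusted p of 0.0610, and states 11 and 12 missed the threshold at 10 kb to 20 kb from the region (adjusted p = 0.0682 each, exact sign-flip). Leaving out 1 strain, which could be 129S1/SvImJ, A/J, C57BL/6J, DBA/2J, NOD/ShiLtJ, NZO/HlLtJ or WSB/EiJ, ended the call of at least 1 of states 5, 11 and 12. State 9, at -0.0223 points and lower in 8 of 9 strains, did not pass (exact adjusted p = 0.133). It passed by the exchange of strains (exact adjusted p = 0.0169), at 1 kb to 5 kb (exact sign-flip, adjusted p = 0.0156) and without PWK/PhJ (exact sign-flip, adjusted p = 0.00938), and not as a share of bins not in state 13 (exact adjusted p = 0.869).

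**Figure D5:**
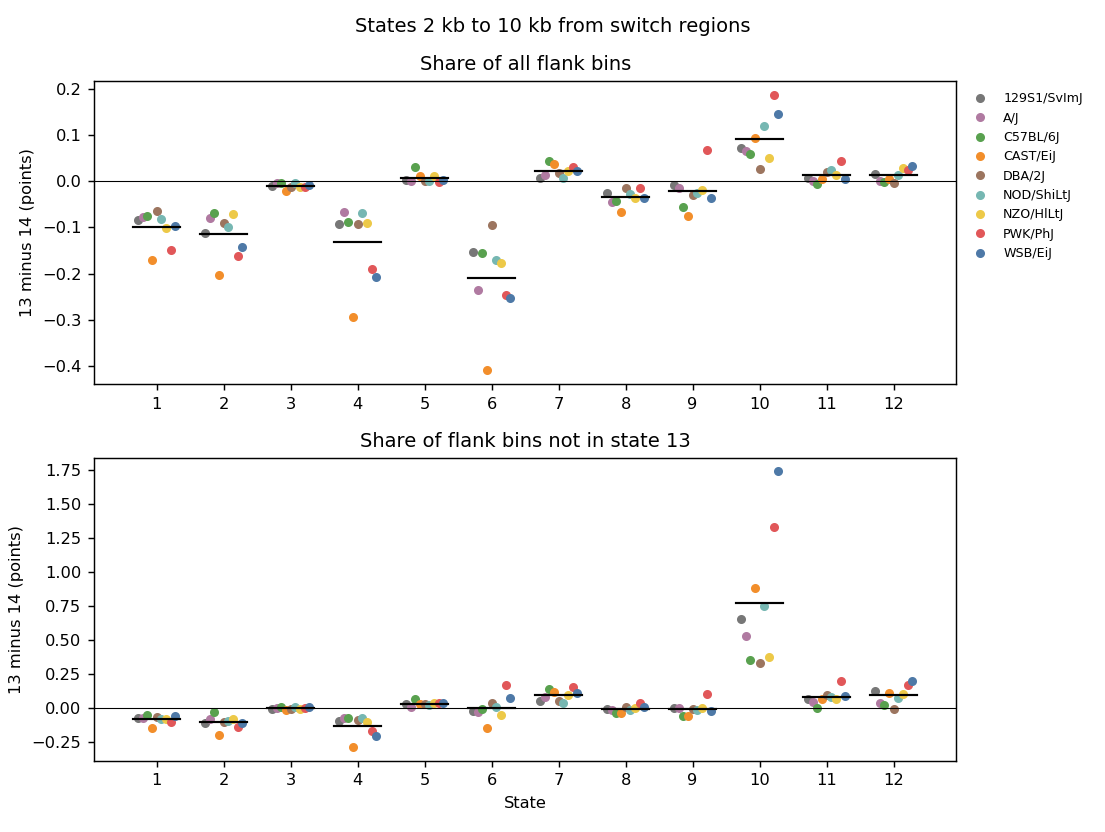
Centred difference, in percentage points, between regions where a strain has state 13 and where it has state 14 for each of states 1 to 12 at 2 kb to 10 kb from the region, as shares of all flank bins (top) and of flank bins not in state 13 (bottom); points are the 9 strains and bars their mean. States 1, 2 and 4 lie below 0 and states 7 and 10 above 0 in all strains in both panels, while state 6 moves from -0.211 points to 0.0040.

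The last comparison was made at the starts of genes with a region in the body. For 2389 genes of known strand, the share of bins within 1 kb of the start in states 1 to 3, with region bins left out, was compared between the strains with state 13 and with state 14 in the gene's longest region. In 1987 of the genes no strain had any of these states at the start. The share was 4.09% ± 0.832 where the strain had state 13 and 5.61% ± 0.765 where it had state 14. The centred difference was -1.13 ± 0.278 points, lower in 9 of 9 strains (exact sign-flip permutation test, p = 0.0039), from -0.802 in C57BL/6J to -1.52 in PWK/PhJ. Without subtraction of the mean, C57BL/6J had a higher share where it had state 13 (5.82% against 4.78%). The share was lower in the other strains, least so in NOD/ShiLtJ (4.28% against 4.41%), and the uncentred values were not tested. The exchange of strains, on centred values, gave an exact permutation p of 2.76e-06. As a share of bins not in state 13 the difference was -1.45 ± 0.332 points, lower in 9 of 9. It was -1.79 points in genes whose longest region reached 2 kb, -0.784 points for a window of 2 kb around the start, and -0.684 points over both ends of the gene. The mean was lower in the strains with state 13 in 284 genes (11.9% of those tested), higher in 97 (4.06%) and equal in 2008. Genes are not replicates, and no gene was tested by itself.

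The genes with the largest differences were of various kinds. Kcnip3, which encodes a calcium-binding partner of potassium channels, had its longest region at chr2:127492801-127495600 in state 13 in C57BL/6J, CAST/EiJ, DBA/2J and WSB/EiJ. Its start had 0% of bins in states 1 to 3 in these 4 strains and in PWK/PhJ, and 90.9% to 100% in 129S1/SvImJ, A/J, NOD/ShiLtJ and NZO/HlLtJ. C6, a complement component made in the liver, had 0% in the 4 strains with state 13 (129S1/SvImJ, A/J, CAST/EiJ and NOD/ShiLtJ) and 36.4% to 90.9% in the other 5, with no overlap. Hao2, a peroxisomal oxidase gene, had 0% in its 3 strains with state 13 (C57BL/6J, CAST/EiJ and PWK/PhJ), and its region of 2600 bp lies across the end of the gene, away from the start, at chr3:98872601-98875200. Its other 6 strains had 18.2% to 72.7%. Atp11a, a phospholipid flippase gene, had 27.3% where the strain had state 13 and 88.6% where it had state 14, and the groups overlapped (63.6% in C57BL/6J with state 13, 54.5% in A/J with state 14). Eci3, an enzyme of fatty acid breakdown, had 31.8% against 83.6% and also overlapped, with 81.8% in NZO/HlLtJ with state 13 and 36.4% in A/J with state 14. Cryl1, a crystallin-related enzyme gene, had 9.09% against 57.6%. Trim30d, Sptbn1, a spectrin gene, Hs3st3a1, a heparan sulfate enzyme gene, and Syde1 complete the 10, with differences of -54.5, -52.7, -51.5 and -51.5 points.

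In the other direction the differences were smaller. Pla2g2c, a phospholipase gene, had 42.4% where the strain had state 13 and 10.6% where it had state 14. The groups overlapped, since WSB/EiJ, with state 13, had 0% and 129S1/SvImJ, with state 14, had 36.4%. Pclo, a gene of the presynaptic zone, had 51.5% against 31.8% and also overlapped. Slc9a5 and Adamts3 differed by 18.2 points each and Dnah7b by 15 points. Fam118a, Poln, Pgpep1l, Lmtk3 and 4930467E23Rik differed by 12.1 points each. The 10 largest differences thus ran from -48.5 to -76.4 points where the share was lower with state 13 and from 12.1 to 31.8 points where it was higher.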

How the data were processed

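4 histone marks and an input were profiled by ChIP-seq in 117 libraries, 13 per strain. The deposited files give, per the file headers, 1 segmentation per strain whose values are state numbers, a category from 1 to 14 in bins of 200 bp, and no intensity, count or depth. The submitters' processing notes name mm10, FastQC 0.11.5 and MACS 1.4.2 with no role. The aligner, the segmentation tool and how mice were combined are not given in the sources used here. The deposited file that joins the strains holds the same intervals and was not used.

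Regions were found with Python 3.11.15, numpy 2.4.6 and pandas 2.3.3, and plotted with matplotlib 3.10.9. The regions and gene lists were chosen with earlier results of these data known. Genes and promoters came from the RefSeq tables for GRCm38.p6. State 3 covered 35.2% ± 1.13 of bins at gene starts and 0.859% of bins 10 kb to the left, so files and table share coordinates. Strand came from the promoter table, and genes without strand were left out of the gene start comparison. The strain is the unit of each test. The 3 mice of a strain are not separate in the files, so the sign-flip p-values measure only the spread between strains. The strains also share ancestry, and their centred differences are not independent. For each strain, values where it has state 13 minus values where it has state 14 were averaged after subtracting the mean of the 9 strains at that region, and tested by exact two-sided sign-flip permutation over 9 strains, Benjamini-Hochberg adjusted over the 12 states. An exact permutation of the strains was added. Its p-value does not measure a spread between strains. It measures whether a strain's values go with its own switch pattern more than with the patterns of other strains. The genes named are the 10 longest regions' genes, the 10 with the most region length, the 10 of 2 kb or more with the highest share of body in regions, the 10 largest gene start differences in each direction and up to 4 per list by region length. In simulated data all 630 and 616 planted regions were recovered, a planted difference of 0 points gave -0.114 (exact sign-flip p = 0.129) and one of 3 points gave 2.86. Unlike the data, the simulated flanks held no state 13 and their bins were drawn independently. The simulation therefore checked the calculation only. Alternatives covered thresholds, flank distance, centring, denominator, chromosomes and leaving out each strain.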

Additional observations from a re-analysis of the deposited data

Results flagged for a closer look

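Measures that did not choose the regions were searched for a strain that stood farther from its neighbour than Dixon's test allows at the 95% level. Of 17 sets of 9 strain values, 5 had one, where chance gives about 1 in 20. The sets overlap (state 6 is part of states 1 to 12), so the count is not one of independent tests. WSB/EiJ had state 13 in 74.7% of its chromosome X bins, below the next strain, PWK/PhJ, at 84.3%.

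In the flanks, CAST/EiJ had the lowest difference for states 1 to 12 together, -1.09 points against -0.572 in WSB/EiJ, and for state 6, -0.409 against -0.253. C57BL/6J had the highest for state 5, 0.0299 against 0.0123 in NZO/HlLtJ. PWK/PhJ was the only strain above 0 for state 9, at 0.0665 points against -0.00777 in 129S1/SvImJ.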

How the results depend on the processing

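The number of regions depended on the rule: it was 81362 with at least 2 strains in each state, 19334 with at least 4, 121205 from 600 bp, 3102 from 2 kb, 73722 when bins of any pattern were merged, and 35308 to 42187 with 1 strain left out. Alternatives on the denominator, on chromosomes 18 and 19, on 1 gene per region, on strain shares and on permuting strains were chosen after seeing the data. The flank difference for states 1 to 12 was -0.437 points without centring (exact p = 0.246) and 0.749 as a share of bins not in state 13, which leaves out the state that fills more of the flank. It ran from -0.501 to -0.372 with 1 strain left out, and was -0.450 at 1 kb to 5 kb and -0.469 at 10 kb to 20 kb. The number of states that were higher was 3 at 10 kb to 20 kb, and 2 to 5 with 1 strain left out. The number that were lower was 3 as a share of bins not in state 13, where state 6 differed by 0.0040 points, and 6 to 7 with 1 strain left out. The cause of these changes was not tested. The gene start difference ran from -1.24 to -1.02 with 1 strain left out and stayed lower in the majority of strains under each alternative. Between windows with the highest and lowest share of states 1 to 12, the share in state 13 moved by -60.4 to -49.1 points in PWK/PhJ and by 33.8 to 42.8 in WSB/EiJ over the thresholds tried and without chromosomes 18 and 19. Depth is unknown, so its limits could not be given. No paired analysis was possible because each strain has 1 segmentation, in which its 3 mice are not separate.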

Other observations

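Chromosome X, which the rule leaves out, held 2169 regions when the same conditions were applied. State 13 was found in 94.1% of them in 129S1/SvImJ and in 8.44% in WSB/EiJ, while on the autosomes these strains had 57.3% and 60.8%. The mean over strains on chromosome X was 57% ± 29.1 (SD, n = 9).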
